A study of Rattus norvegicus with 6 samples.

Results

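Insulin and the insulin-like growth factors signal through closely related receptor tyrosine kinases, and 10 genes of this system were examined in rat beta cell-enriched preparations: the ligand Igf1, the receptors Igf1r and Insr, the receptor substrates Irs1 and Irs2, and the binding proteins Igfbp3, Igfbp4, Igfbp5, Igfbp6 and Igfbp7. Members were taken by symbol, as the probe sets whose annotation gave 1 of these symbols alone. This found 10 probe sets, of 29214 on the array, for 9 of the 10 genes, while 1 gene, Irs2, had no such probe set and is not analysed here. Insr had 2 probe sets and every other member had 1.

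The study hybridised total RNA from male Wistar rats of 2 ages to whole-transcript arrays, to compare immature with mature beta cells. The day 20 group comprised 3 preparations from suckling animals at postnatal day 20, and the adult group 3 preparations from young animals of about 2 months, weighing 250 to 280 g. No genotype or treatment was given for either group, and both consisted of primary cells sorted without an antibody, by forward scatter, side scatter and autofluorescence. Neither the number of animals behind each preparation nor a time in culture is stated in the labels.

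Values are log2 signals per probe set after RMA, the normalization that the authors applied, so a difference of 1 is a 2-fold change. Array medians lay between 6.35 and 6.39 and the first quartiles between 4.91 and 4.94. No detection calls accompany the values, and the number of arrays limits the precision. Both insulin genes had high signals at both ages (14.31 ± 0.04 in adult and 13.996 ± 0.20 at day 20 for Ins1, SD, n = 3), but so did markers of other pancreatic cells. The mean log2 signal of 7 acinar enzyme genes lay between 14.43 and 14.48 in adult and between 14.27 and 14.50 at day 20, and Gcg, the glucagon gene of alpha cells, was at 13.35 ± 0.61 and 14.08 ± 0.17. Transcripts of beta cells, the cells named in the labels, were thus abundant together with those of other pancreatic cells. In such samples fewer cells of a type and less RNA per cell cannot be told apart.

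As background, Igf1 is a secreted growth factor that binds its receptor Igf1r with high affinity and the insulin receptor Insr weakly. Activated receptors phosphorylate the adaptors Irs1 and Irs2, which recruit phosphoinositide 3-kinase and so activate Akt, and Irs2 is the substrate best known for sustaining beta cell mass. The binding proteins hold insulin-like growth factors in the extracellular space, lengthen their life and limit or aid their access to receptors.

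The 9 measured members did not move together with age. Igf1 and Igfbp7 rose from day 20 to adult, by 2.59-fold and 1.65-fold, while neither receptor, nor Irs1, nor the other 4 binding proteins passed the test. Thus 2 of 9 members were higher and 0 lower in adult at an adjusted p under 0.05 (limma, adjusted over all 14506 genes). Over all genes, 11.8% were called higher and 10.9% lower. Without passing, Irs1 had an unadjusted limma p of 0.024, and the less bright probe set of Insr 1 of 0.049. The groups did not overlap for 4 of the 9 members, against 39.6% of all genes, so these counts set the members little apart from the background. The median difference of the members was 0.06, beside 0.01 over all genes. With the lower 33.3% of genes by mean signal removed, 8 of the 9 members remained and Igfbp5 did not.

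**Figure D1:**
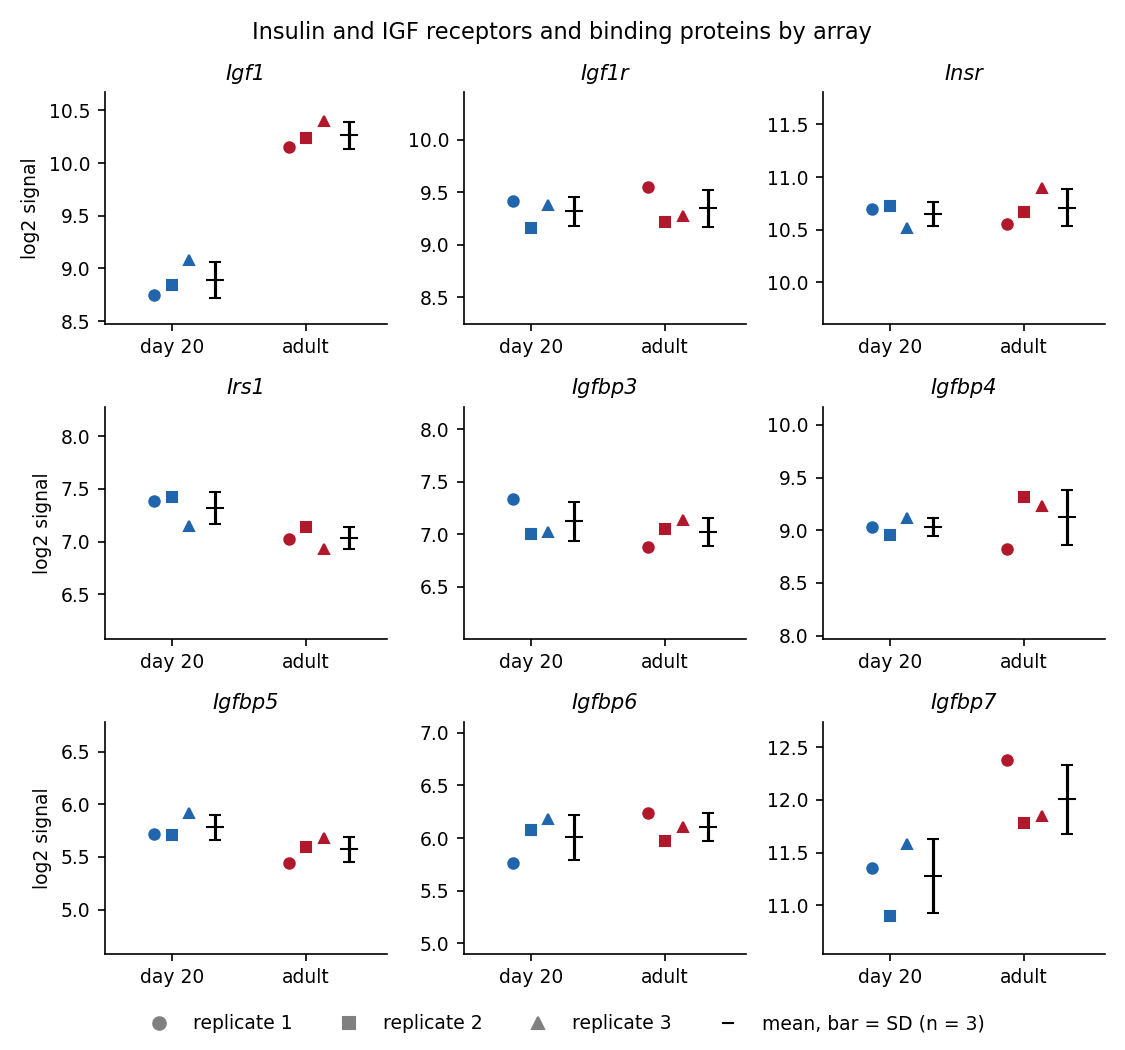
Log2 signal (vertical axes, each spanning 2.2 log2 units) of the 9 measured members in the 3 day 20 and 3 adult arrays, with the mean and SD of each group beside the points; Insr is shown by its brighter probe set. Igf1 is the member whose groups lie farthest apart, with adult arrays between 10.15 and 10.40 and day 20 arrays between 8.75 and 9.08.

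Among the ligands, Igf1 (probe set 10894695) showed the largest change of any member. Its log2 signal was 10.15, 10.23 and 10.40 in the adult arrays and 8.75, 8.84 and 9.08 in the day 20 arrays. Every adult array thus lay above every day 20 array, with a gap of 1.07 between the groups. The means of 10.26 ± 0.13 and 8.89 ± 0.17 (SD, n = 3) differed by 1.37 with a 95% interval of 1.12 to 1.63 (limma adjusted p = 1.4e-04). Igf1 was 1 of the 221 genes that passed and were at least 2-fold higher in adult, which are 1.52% of the genes tested. Among all genes, passing or not, it had the 82nd largest rise. The spread within each age, 0.25 over the adult arrays and 0.33 over the day 20 arrays, was small beside the difference.

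Because Igf1 and Igfbp7 were the members that rose, the RefSeq sequence around 1 annotated transcript start of each is shown, from 250 bases before the start to 50 after, on the strand of the gene (build GRCr8). Igf1 has more than 1 start, and the array does not separate them. The Igf1 window is chr7:24172282-24172581 on the plus strand and the Igfbp7 window chr14:31091486-31091785 on the plus strand, and capitals mark the matches to the motifs described next.
Igf1: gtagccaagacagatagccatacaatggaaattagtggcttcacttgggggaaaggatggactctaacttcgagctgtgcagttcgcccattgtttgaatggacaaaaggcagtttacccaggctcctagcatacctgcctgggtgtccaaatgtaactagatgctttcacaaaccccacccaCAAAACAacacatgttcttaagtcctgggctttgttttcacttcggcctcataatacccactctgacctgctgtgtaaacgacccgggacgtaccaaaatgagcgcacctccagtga
Igfbp7: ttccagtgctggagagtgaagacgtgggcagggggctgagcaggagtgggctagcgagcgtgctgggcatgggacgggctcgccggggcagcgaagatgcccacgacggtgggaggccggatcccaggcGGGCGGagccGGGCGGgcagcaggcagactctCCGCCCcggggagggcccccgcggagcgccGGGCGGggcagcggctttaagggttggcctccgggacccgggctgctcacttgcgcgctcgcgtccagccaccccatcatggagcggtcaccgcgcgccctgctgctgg

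The windows of these genes differ in base composition. That of Igf1 has 48.3% G and C and 7 CpG dinucleotides, beside medians of 51.7% and 7 over 33469 rat promoter windows, whereas that of Igfbp7 has 74.3% and 32, more CpG than 91.6% of windows. Of 5 motifs searched on both strands, the capitals in Igf1 mark CAAAACA, the core of the insulin response element described in the Igfbp1 promoter, at bases 184 to 190. This motif occurs in 6.28% of all windows and in 1 of the 9 members. The capitals in Igfbp7 mark 4 copies of the GC box GGGCGG, 3 on the gene's strand and 1 on the other, a motif present in 33.1% of all windows and in 3 of the 9 members, the others being Igf1r and Irs1. The TATA box TATAAA was found in Igfbp4 alone (14.2% of all windows), the FOXO core GTAAACA in Insr and Igfbp6 (3.78%) and the cyclic AMP response core TGACGT in none of the 9 (7.94%). No printed match overlaps another, and a match of letters does not show that a factor binds there.

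The receptors showed no difference that passed the test. Igf1r (probe set 10707889), the receptor tyrosine kinase for Igf1, had log2 signals of 9.55, 9.22 and 9.28 in adult and 9.41, 9.16 and 9.38 at day 20. The arrays of the 2 ages were interleaved, and the means of 9.35 ± 0.17 and 9.32 ± 0.14 (SD, n = 3) differed by 0.03 (limma adjusted p = 0.90). The 95% interval of that difference, -0.23 to 0.29, allows a rise of up to 1.23-fold and a fall of up to 1.18-fold.

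Insr, the insulin receptor, was measured by 2 probe sets whose results differed in detail. The brighter one (10756251) gave 10.55, 10.67 and 10.90 in adult and 10.70, 10.73 and 10.52 at day 20. Its groups overlapped, with a difference of 0.06 and a 95% interval of -0.19 to 0.32 (limma adjusted p = 0.77). The other probe set (10756229), the one annotated to the RefSeq transcript, gave 9.64, 9.74 and 9.77 in adult and 9.57, 9.55 and 9.44 at day 20. There every adult array lay above every day 20 array, by 0.20 on average, and the difference did not pass when all probe sets were fitted (limma adjusted p = 0.14). The 2 probe sets' differences with age did not differ beyond their spread (0.13, two-sided exact permutation p = 0.30, the smallest possible being 0.10). The changes of Igf1r and Insr were likewise set against each other within each array. The change of Igf1r minus that of Insr was -0.03 with the brighter probe set and -0.17 with the other (two-sided exact permutation p = 0.90 and 0.30).

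Irs1 (probe set 10929390), an adaptor that receptors of both ligands phosphorylate, had signals of 7.02, 7.14 and 6.93 in adult and 7.39, 7.42 and 7.15 at day 20. All adult arrays lay below all day 20 arrays, but the lowest day 20 array exceeded the highest adult array by only 0.0051. The difference was -0.29 with a 95% interval of -0.52 to -0.05 and did not pass (limma adjusted p = 0.086). It passed in 2 of 15 alternative fits, with array weights (adjusted p = 0.042) and without day 20 replicate 3 (0.040), and its direction was the same in all 15.

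**Figure D2:**
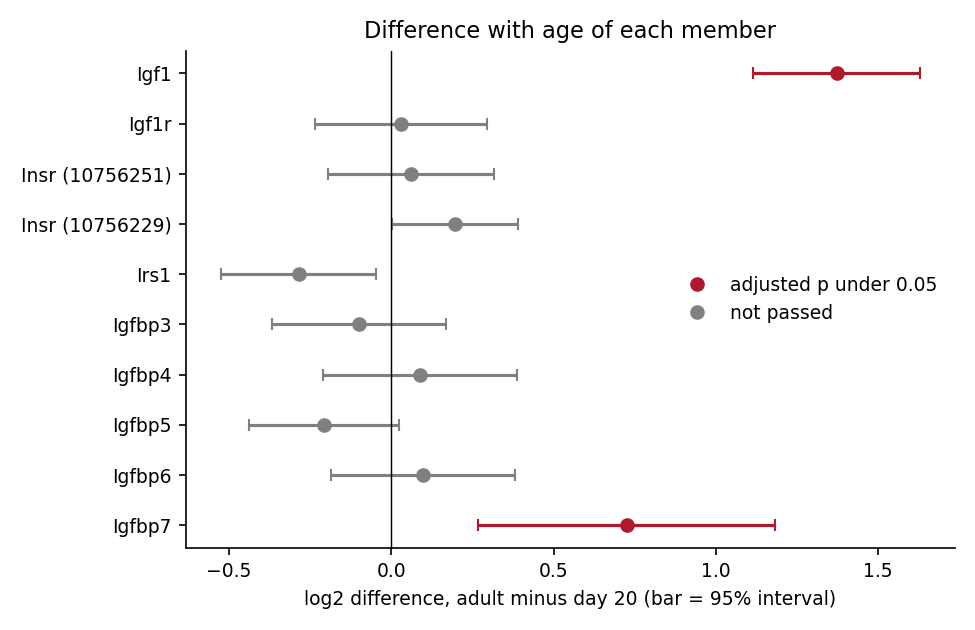
Adult minus day 20 difference in log2 signal for the 9 members (points), with 95% intervals from limma (bars); both probe sets of Insr are shown, and red marks an adjusted p under 0.05. Igf1 at 1.37 and Igfbp7 at 0.72 are the members in red, and the other points lie between -0.29 and 0.20.

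Of the 5 binding proteins measured, 1 was higher in adult, Igfbp7, and 0 were lower, which against 11.8% and 10.9% of all genes does not set them apart. Igfbp7 (probe set 10772169) binds insulin-like growth factors weakly, also binds insulin, and is secreted by endothelial cells among others. Its log2 signal was 12.38, 11.79 and 11.85 in adult and 11.36, 10.90 and 11.58 at day 20. Adult arrays were above day 20 arrays without exception, although the gap between the groups, 0.20, was smaller than the spread within each (0.60 in adult and 0.69 at day 20). The means of 12.005 ± 0.33 and 11.28 ± 0.35 (SD, n = 3) differed by 0.72 with a 95% interval of 0.27 to 1.18 (limma adjusted p = 0.031).

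The call of Igfbp7 rested on particular arrays. It was lost without adult replicate 1 (difference 0.54, adjusted p = 0.085), without day 20 replicate 1 (0.76, 0.078) and without day 20 replicate 2 (0.53, 0.096). Adult replicate 1 was the highest adult array for Igfbp7, and day 20 replicate 2 the lowest day 20 array.

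Igfbp4 (probe set 10738140), which mainly inhibits insulin-like growth factor action and is cleaved by the protease Pappa, had signals of 8.83, 9.32 and 9.23 in adult and 9.03, 8.95 and 9.12 at day 20. Adult replicate 1 lay below all day 20 arrays while the other adult arrays lay above them. The difference was 0.09 (95% interval -0.21 to 0.39, limma adjusted p = 0.70).

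Igfbp3 (probe set 10778390), the main carrier of insulin-like growth factors in serum, had signals of 6.88, 7.05 and 7.13 in adult and 7.34, 7.01 and 7.02 at day 20. Its groups overlapped, and the difference of -0.10 did not pass (95% interval -0.37 to 0.17, limma adjusted p = 0.62).

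Igfbp5 and Igfbp6 had signals below the array medians, and no detection call shows whether they were above background. Igfbp5 (probe set 10928837), which also binds extracellular matrix, was at 5.44, 5.59 and 5.68 in adult and 5.72, 5.70 and 5.92 at day 20. Adult arrays were the lower ones throughout, by 0.02 at the nearest pair, and the difference of -0.21 did not pass (95% interval -0.44 to 0.02, limma adjusted p = 0.19). Igfbp6 (probe set 10899465), which prefers Igf2, was at 6.24, 5.97 and 6.11 in adult and 5.77, 6.07 and 6.18 at day 20. Those groups overlapped, and the difference was 0.10 (95% interval -0.19 to 0.38, limma adjusted p = 0.65).

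The cell types that could contribute these transcripts moved with age in their own ways. Of 10 endothelial markers, 0 rose and 10 fell in adult (limma, adjusted p under 0.05), and their mean log2 signal lay between 5.73 and 5.87 in adult and between 6.74 and 7.40 at day 20. Of 11 fibroblast and stellate markers, 0 rose and 5 fell, and their mean lay between 5.86 and 5.94 against 6.37 and 6.58. Of 10 leukocyte and macrophage markers, 0 rose and 1 fell, and their mean lay between 5.67 and 5.74 against 5.71 and 5.84. Igf1 and Igfbp7 thus were higher in the group in which the means of the endothelial and fibroblast lists were lower. In the fibroblast list, Vim (-2.81) and Dcn (-1.52) fell most, the median difference was -0.29, and 1 of the 11 differences was positive. The acinar mean differed between the ages by 0.09, and 0 of its 7 genes passed. These acinar genes lay near the top of the scale, which RMA compresses, so equal acinar content at both ages is not shown. Among the other islet cells, 1 of 4 alpha and 4 of 4 delta and PP markers fell, as did 1 of 5 duct and 5 of 5 cell division genes, and none of these rose.

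Beta cell and endocrine markers moved in the same direction as Igf1 and Igfbp7. Of 6 beta cell genes, 4 rose and 0 fell. Of 12 genes of the endocrine secretory pathway, 9 rose and 0 fell in adult, and their mean ranged from 10.55 to 11.24 in adult and from 9.39 to 10.40 at day 20. Within each age the arrays stood in the same order for that mean as for Igfbp7, with replicate 1 highest and replicate 2 lowest in adult, and replicate 3 highest and replicate 2 lowest at day 20. The mean of the delta and PP markers, which was lower in adult, took the same order, so the order does not single out 1 list. The beta cell mean had that order in adult but had replicate 1 highest at day 20. For Igf1 the order was another one, with replicate 3 highest and replicate 1 lowest at both ages. With the 12-gene mean as a covariate in the fit, the difference of Igf1 was 1.30 (limma adjusted p = 0.0066) and that of Igfbp7 was 0.02 (0.96). That mean did not itself overlap between the ages, so as a covariate it also takes up part of the age difference. Over all genes, calls fell with it from 1718 higher and 1576 lower to 307 and 466. The fit thus cannot separate endocrine content from age. The part of each cell type in these differences was not tested.

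**Figure D3:**
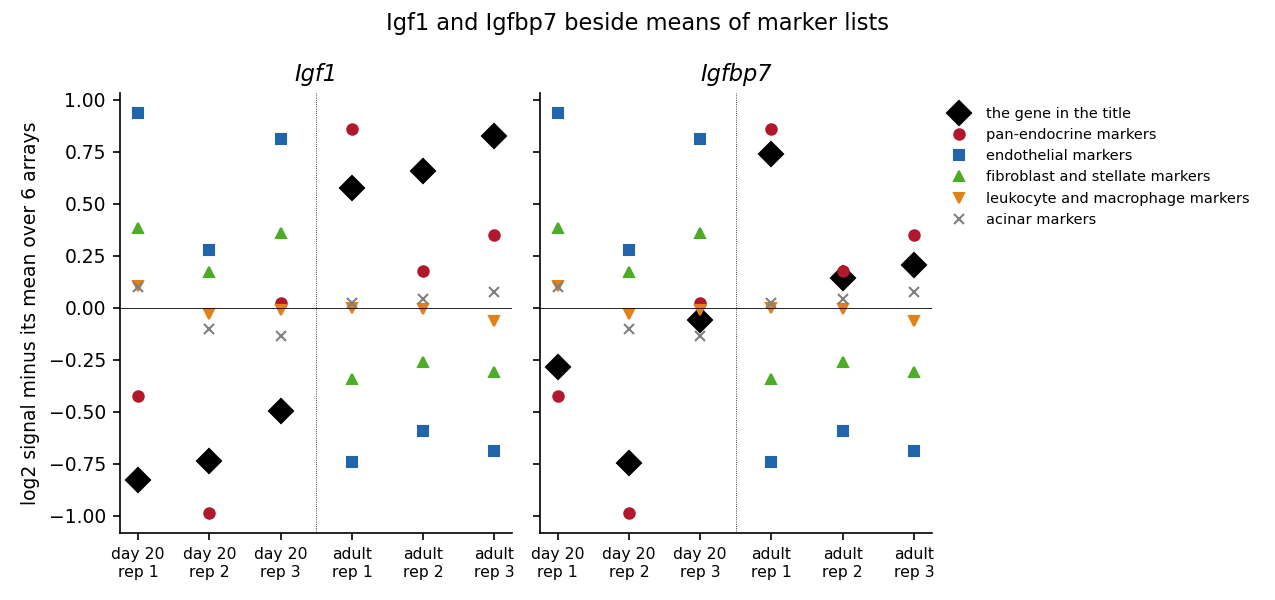
Log2 signal minus its mean over the 6 arrays (vertical axis) for Igf1 (left) and Igfbp7 (right) as black diamonds, beside the same for the mean of 5 marker lists, in each array (horizontal axis). Igfbp7 and the pan-endocrine mean take the arrays of each age in the same order, as does the delta and PP mean, which is not drawn. Igf1 takes them in another, and the endothelial mean is lower in adult (5.79) than at day 20 (7.14).

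The rest of the pathway was read from 3 fixed lists of other insulin and IGF genes, of which 52 genes were measured. Of these, 11 were higher and 6 lower in adult (limma, adjusted p under 0.05), and 35 did not pass, where 11.8% of all genes were higher and 10.9% lower. The share of the 52 that was lower is thus at that of all genes. The lists were chosen with earlier results of these data known. The count of 11 fell to 4 without day 20 replicate 2, to 6 without adult replicate 1 and to 7 without day 20 replicate 1 or day 20 replicate 3, and the count of 6 fell to 3 without adult replicate 1 or adult replicate 3. Counts over all genes fell too, from 1718 to 1083 higher without day 20 replicate 2, and from 1576 to 1270 and 1120 lower without adult replicate 1 and adult replicate 3.

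Among 12 other ligands, receptors, binding proteins and their proteases, 3 rose and 2 fell, against 11.8% and 10.9% of all genes. Insrr, an orphan receptor of the insulin receptor family that responds to alkaline pH, had log2 signals of 10.55, 9.52 and 9.58 in adult and 8.68, 7.98 and 9.11 at day 20. All adult arrays lay above all day 20 arrays, a 2.45-fold rise (9.88 ± 0.58 against 8.59 ± 0.57, SD, n = 3, limma adjusted p = 0.021). The arrays of Insrr stood in the same order as those of Igfbp7, and its call was lost without the same arrays (adult replicate 1, day 20 replicates 1 and 2, adjusted p up to 0.064). Insr and Igf1r, its relatives, differed by 0.06 and 0.03.

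The regulators of binding protein cleavage moved both ways. Pappa, the protease that cleaves Igfbp4, rose by 1.38-fold (7.14 ± 0.05 against 6.68 ± 0.16, n = 3, limma adjusted p = 0.013), while Igfbp4 itself did not pass. Stanniocalcins inhibit that protease, and Stc2 rose by 1.41-fold (limma adjusted p = 0.010) whereas Stc1 was lower in adult. Stc1 was at 5.41, 5.45 and 5.01 in adult and 6.76, 6.49 and 6.70 at day 20. It was thus 2.57-fold higher at day 20 (limma adjusted p = 3.4e-04), with its adult mean of 5.29 little above the first quartile of the arrays. Igfbp1, a binding protein made mainly in liver, fell in adult by 0.39 on the log2 scale (6.504 ± 0.10 and 6.89 ± 0.12 in adult and day 20, n = 3, limma adjusted p = 0.021), and that call did not hold once adult replicate 1, adult replicate 3 or day 20 replicate 3 was dropped (up to 0.064).

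The ligands beside Igf1 did not pass. Igf2, the fetal growth factor of the family, was at 7.23, 7.21 and 7.21 in adult and 7.19, 6.63 and 6.90 at day 20 (difference 0.31, limma adjusted p = 0.14), and passed without day 20 replicate 1 (0.031). Ins1 and Ins2 differed by 0.32 and 0.21 near the top of the scale (adjusted p = 0.072 and 0.23). Igf2r, which clears Igf2, differed by 0.13 (adjusted p = 0.32) and Igfbp2 by -0.14 (0.42).

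Of 26 adaptors, kinases and targets downstream of the receptors, 5 rose and 0 fell, against 11.8% and 10.9% of all genes, with a median difference of 0.06. The 4 largest rises were those of the docking protein Gab1 (1.44-fold, limma adjusted p = 0.018), the transcription factor Foxo1, which Akt keeps out of the nucleus (1.41-fold, 0.015), the Akt-activating kinase Pdpk1 (1.39-fold, 0.0069) and the Ras exchange factor Sos1 (1.30-fold, 0.046). The fifth, named after its value was seen, was the kinase Gsk3a (1.21-fold, 0.037). Pdpk1 kept its call with each array left out in turn. Foxo1 lost it without day 20 replicate 2 (adjusted p = 0.058), Gab1 without day 20 replicate 1 or 2 (up to 0.068), Sos1 without any array other than adult replicate 2 (up to 0.14) and Gsk3a without any of the 6 (up to 0.11). A second quantile normalization also ended the calls of Sos1 and Gsk3a (0.053 and 0.080).

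Of 14 inhibitors of the pathway, 3 were higher and 4 lower in adult, against 11.8% and 10.9% of all genes. Grb10, an adaptor that binds and inhibits the insulin and IGF receptors, was at 8.84, 8.99 and 9.19 in adult and 9.87, 9.995 and 9.73 at day 20. Its groups were apart, and it fell by 0.85 on the log2 scale (limma adjusted p = 0.0014). Its relative Grb14 fell by 0.70 (6.02 ± 0.09 against 6.72 ± 0.17, n = 3, adjusted p = 0.0026). Both calls held with each array left out in turn.

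Socs1 and Socs2, suppressors of cytokine signalling that also act on these receptors, fell by 0.43 and 0.31 (limma adjusted p = 0.023 and 0.034). The call of Socs1 did not hold once any of adult replicates 1 and 3 and day 20 replicates 1 and 2 was dropped (up to 0.081), and that of Socs2 without any of the 6 arrays (up to 0.093). The Akt phosphatase Phlpp1 rose by 1.38-fold (adjusted p = 0.0088) and kept its call with each array left out. Tsc1 and Tsc2, which together restrain mTOR, rose by 1.24-fold and 1.25-fold (0.047 and 0.043). Those calls were lost with the arrays centred on their medians (0.051 and 0.069), that of Tsc1 also without any array other than adult replicate 3 (up to 0.12) and that of Tsc2 without any of the 6 (up to 0.15). With the 12-gene endocrine mean as a covariate, 1 of the 17 called pathway genes, Stc1, was still called, and Grb10 had an adjusted p of 0.068. The sizes of the differences behind the lost calls diverged. Those of Insrr (1.29 to 0.11), Sos1 (0.38 to 0.11), Foxo1 (0.50 to 0.19) and Gab1 (0.52 to 0.20) shrank. So did those of Socs1 (-0.43 to -0.17), Pappa (0.46 to 0.25), Grb10 (-0.85 to -0.59), Grb14 (-0.70 to -0.51) and Pdpk1 (0.48 to 0.34). Those of Tsc2 (0.32 to 0.45), Gsk3a (0.28 to 0.29), Igfbp1 (-0.39 to -0.41) and Socs2 (-0.31 to -0.33) were about as large or larger. Those of Stc2 (0.49 to 0.44), Tsc1 (0.31 to 0.29) and Phlpp1 (0.46 to 0.40) were slightly smaller.

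**Figure D4:**
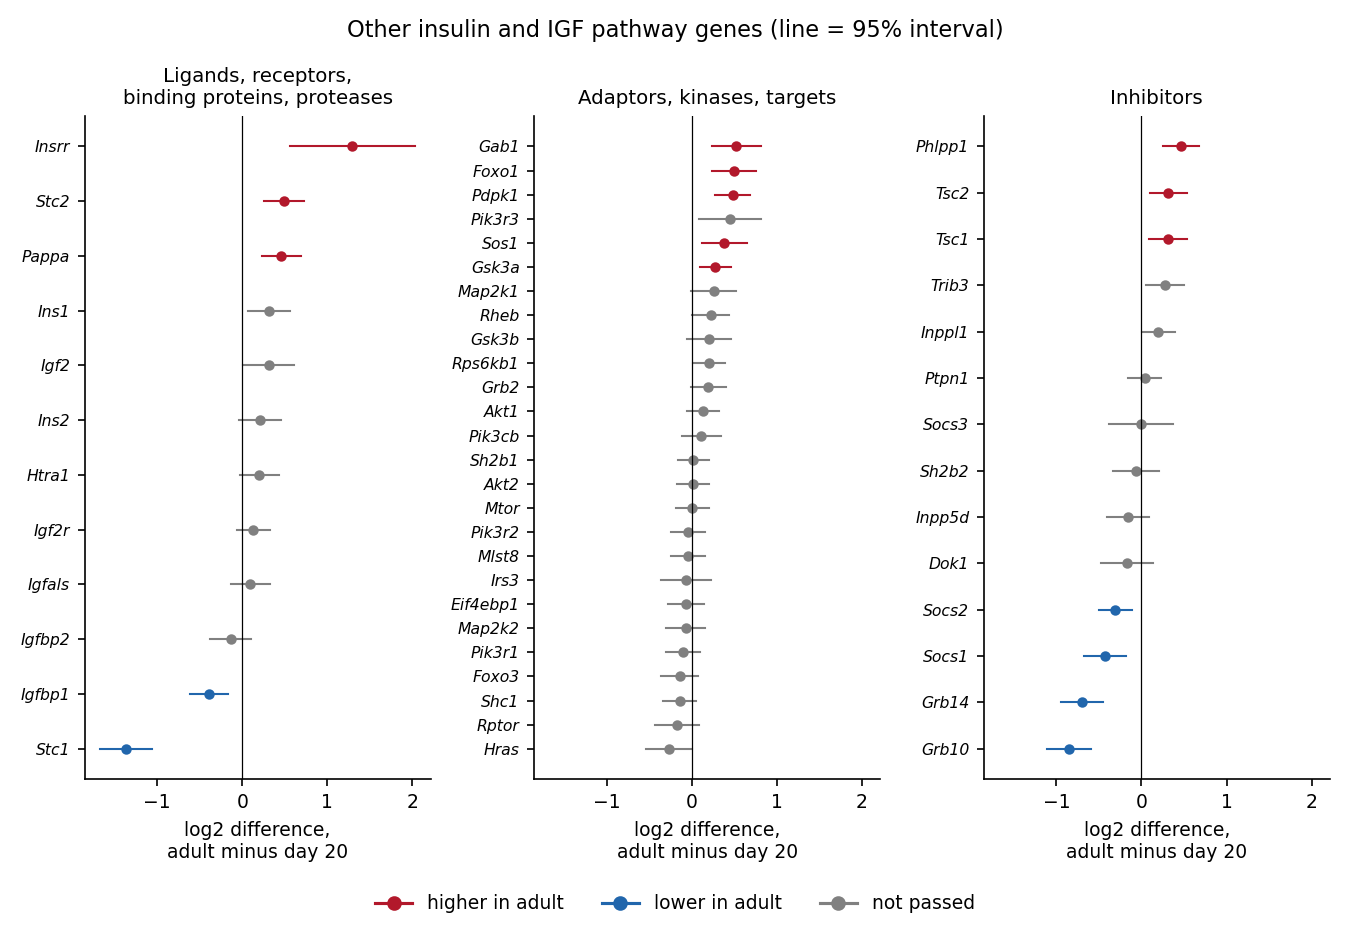
Adult minus day 20 difference in log2 signal (horizontal axes) of 52 other insulin and IGF pathway genes in 3 lists, with 95% intervals (lines); red marks genes higher and blue genes lower in adult. The largest rise is that of Insrr (1.29), and the largest falls are those of Stc1 (-1.36) and Grb10 (-0.85). Downstream genes lie between -0.27 and 0.52, with a median of 0.06.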

How the data were processed

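The authors deposited 1 log2 signal for each probe set and array, made with RMA (background correction, quantile normalization, probe summary), per the submitters' processing notes. The scale was taken from the range, 1.73 to 14.7. Neither software, annotation nor genome build is given in the sources used here. RMA assumes that most genes do not differ and compresses both ends of the scale.

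Probe sets were named by the platform annotation, with symbols updated through RefSeq: 15310 had 1 symbol, 323 several and 13581 none. For the 527 of 14506 genes with several, the probe set with the highest mean was used. Adult was compared with day 20 by lmFit and eBayes of limma 3.58.1 (R 4.3.3), two-sided, p-values being adjusted over 14506 genes by Benjamini-Hochberg, with a threshold of 0.05 and no filter on low signal. The fit was tested on simulated arrays. Labels call the samples biological replicates.

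Named were all members, per pathway list the 4 genes that rose most and the 4 that fell most among those passing, and Ins1, Ins2, Igf2, Igf2r and Igfbp2. Members, lists, covariate and marker genes were chosen with earlier results of these data known. Of the listed pathway and marker genes, those without a single-symbol probe set are not analysed here. Promoter windows came from RefSeq (GRCr8). The planned comparison of Irs2 with Irs1 could not be made.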

Additional observations from a re-analysis of the deposited data

How the results depend on the processing

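The fit over all genes was repeated under 15 alternatives, 14 for Igfbp5, which the filter on low signal removed, and the comparison of Igf1r with Insr under 7. Values per gene were kept for 31 named genes. Igf1 passed in all 15, with differences of 1.30 to 1.47. The count of members called higher, 2, was 1 with the 12-gene endocrine mean as covariate and 1 to 2 with single arrays left out, and that of members called lower, 0, was 1 with array weights and 0 to 1 with single arrays left out. Pathway genes called higher, 11, became 7 after a second quantile normalization, 0 with the covariate and 4 to 8 with single arrays left out. Calls lost with the covariate include differences about as large as before, such as Tsc1 (0.31 and 0.29) and Phlpp1 (0.46 and 0.40). Other differences shrank, such as Gab1 (0.52 and 0.20) and Socs1 (-0.43 and -0.17). Pathway genes called lower, 6, became 1 with the covariate and 3 to 5 with single arrays left out. Deviations from the mean of each age correlated by -0.19, 0.19 and -0.21 between same-numbered arrays. Between adult replicate 1 and day 20 replicate 3 the correlation was 0.37. With 3 arrays per age, such values cannot show whether replicate numbers paired the preparations. With the replicate number as a block, 2 members and 7 pathway genes were higher.

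Directions turned only for values that did not pass: Igf1r after a second quantile normalization (-0.032) and with the covariate (-0.26), Insr after that normalization (-0.0042) and Igfbp6 with the covariate (-0.063). With single arrays left out, differences ranged from -0.070 to 0.094 for Igf1r, -0.035 to 0.14 for Insr, -0.16 to 0.0094 for Igfbp3, -0.0070 to 0.24 for Igfbp4, -0.022 to 0.19 for Igfbp6 and -0.21 to 0.10 for Igf1r minus Insr. Over all genes, 1718 were higher and 1576 lower, against 307 and 466 with the covariate, and 1065 and 1083 higher without day 20 replicate 1 or 2. Signals near the first quartile are not shown to be above background.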
